A study of Nasonia vitripennis with 76 samples.

Results

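Heads of diploid (2N) females of *Nasonia vitripennis* were compared between generations F14 and F2 of 1 line, across all measured genes. The 10 libraries were taken by their labels: 5 libraries labelled 2N female head of generation F2, named A21 to A25, and 5 of generation F14, named A61 to A65, out of 76 in the series. *Nasonia vitripennis* is a parasitoid wasp in which unfertilised eggs become haploid males and fertilised eggs become diploid females. Every wasp came from the strain labelled TRA, a polyploid line that was founded by knockdown of *transformer*, so both groups share that origin. All were sampled 1 day after emergence, and polyadenylated RNA was extracted without a DNase step. The series also holds triploid females and haploid and diploid males, as heads and as abdomens.

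Whether each library holds 1 wasp or a pool, and whether wasps were reared apart, is not in the labels, so each p-value measures the spread between these libraries, which may be technical. They give no batch either, and no library is shared between generations. Generation and any batch of libraries therefore cannot be told apart, and "higher" or "lower" below always means F14 relative to F2.

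An insect head holds the brain, the compound eyes, the antennae with their odorant receptor neurons, muscle, fat body and cuticle. Odorant receptors are ligand-gated channels of antennal neurons that work only with a shared coreceptor, which is Or1 in *Nasonia*. Cytochrome P450 enzymes, carboxylesterases and glutathione transferases modify and clear foreign and endogenous small molecules, and in insects some of them also act in the antenna on odorants. Oxidative phosphorylation couples electron transport through complexes I to IV of the inner mitochondrial membrane to ATP synthase. In bulk tissue, fewer cells of a type and less RNA per cell cannot be told apart.

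The total count per library was 21483912 to 32507369 in F2 and 16550455 to 17878405 in F14, within the range of 14210227 to 60120429 over all 76 libraries. Between 12386 and 12610 genes had a count in an F2 library and between 10963 and 11644 in an F14 library. After thinning to the lowest total the ranges were 12226 to 12380 and 10963 to 11633, so F14 libraries held fewer detected genes also at equal depth. The first principal component of log2 CPM (counts scaled to the library total) took 80.9% of the variance and placed all F2 libraries on one side and all F14 libraries on the other. Pearson's r across genes was 0.978 to 0.994 between F2 libraries, 0.976 to 0.988 between F14 libraries and 0.873 to 0.913 between an F2 and an F14 library. The eye gene Lop1, a long-wavelength opsin, was abundant in all 10 libraries.

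Library A24 of F2 stood apart in markers of another body part. A list of 44 genes with at least 50 CPM in all 8 diploid female abdomens and under 0.5 CPM in all 10 diploid male heads, drawn up after the data were seen, summed to 373 CPM in A24. That is 3.83% of the mean abdomen, and none of the 44 genes was at 0 in A24. The sum was 34.3 CPM in A23, 3.15 to 8.71 CPM in A21, A22 and A25, and 1.65 to 6.20 CPM in the F14 libraries, where 28 to 39 of the genes were at 0. None of the 44 passed the filter on low counts. The ovary and germ line genes *oskar*, *nanos* and cycB were also highest in A24 among the F2 libraries, with 14.5, 1.27 and 22.7 CPM. The other F2 libraries held *nanos* at 0 to 0.0663 CPM and cycB at 0.398 to 1.81 CPM. *oskar* was not confined to A24, with 5.84 to 7.45 CPM in the other F2 libraries. In F14, A65 lay closest to the F2 libraries, with a mean r of 0.906 against 0.886 to 0.890 for the other four.

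Of 10390 genes that passed the filter, 7024 (67.6%) were called at an adjusted p below 0.05 by edgeR's quasi-likelihood test, 3382 (32.6%) higher and 3642 (35.1%) lower. With so large a background, a share of called members near these percentages says nothing about a gene group. Differences of at least 2-fold were called for 1239 higher and 1735 lower genes, and of at least 4-fold for 328 and 766. The 5 F14 and 5 F2 values did not overlap for 2727 genes on the higher side (26.2%) and 2921 on the lower side (28.1%). The median log2 difference was -0.03 and the median absolute difference 0.60. A further asymmetry lay at the low end: 131 genes had no count in any F14 library and a count in every F2 library, 33 of them odorant receptors, while 3 genes showed the opposite. The F2 libraries are the deeper ones, which bears on that last count. Chromosomes 1 to 5 were alike, with 66.7% to 69.3% of their genes called and medians from -0.05 to 0.02.

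**Figure D1:**
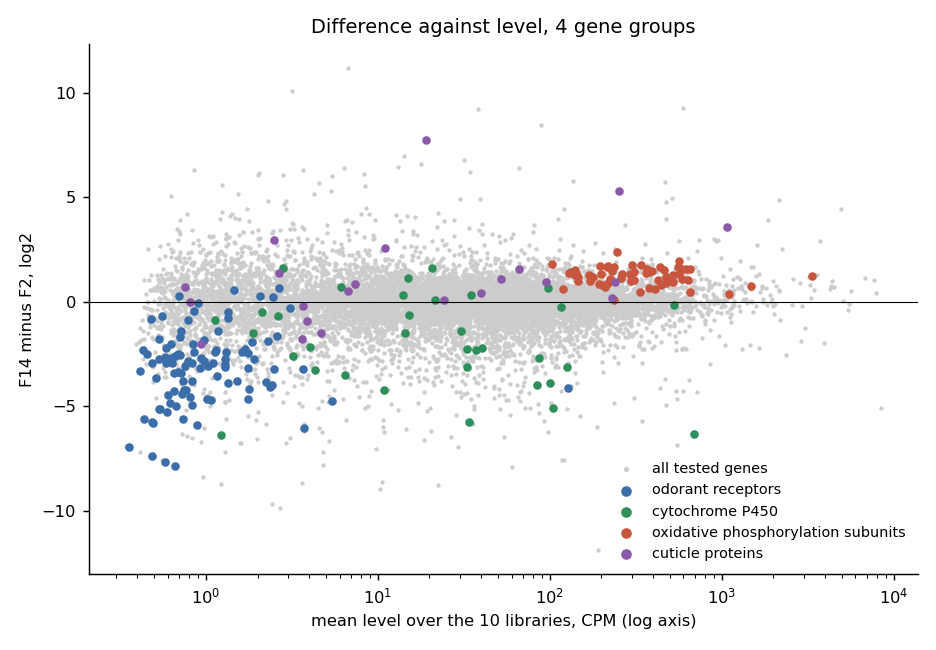
Log2 difference of F14 minus F2 (vertical axis) against the mean level over the 10 libraries in CPM (horizontal, log axis) for the 10390 tested genes, 1 point a gene. Odorant receptors lie at low levels, 95 of 100 below 0, oxidative phosphorylation subunits lie at high levels and above 0, and P450 and cuticle protein genes spread in both directions.

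The difference moved with transcript length. Relative effective length was taken from each gene's count per unit of TPM, and tested genes with a count in all 10 libraries were split into 5 length classes of nearly equal size. In the shortest class (1973 genes) the median log2 difference was 0.51, with 53.7% of genes called higher and 16.7% called lower. In the longest class (1973 genes) it was -0.38, with 16.8% higher and 57.4% lower, and the classes between had medians of 0.22, 0.03 and -0.18 in order of length. The trend remained on the deposited TPM scale, although TPM divides by transcript length. Class medians of the log2 TPM ratio were 0.19, -0.06, -0.24, -0.44 and -0.64 from shortest to longest. The median of all tested genes on that scale was -0.30, so it was shifted as a whole relative to the counts. There, 3733 genes had a higher and 6642 a lower F14 mean, and 207 of 7010 called genes pointed the opposite way, 206 of them called higher on counts. Results below are from the counts, and values with each library's trend over length removed, an alternative added after the data were seen, are given where they move a printed median or difference by more than 1.5 times or change a call. That fit called 6734 genes, 3400 higher and 3334 lower.

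Subunits of oxidative phosphorylation were higher as a group. Of 63 genes, 61 were tested and 59 were called higher and 0 lower, and for all 59 the F14 libraries lay above every F2 library. Their median log2 difference was 1.29. Summed over the group, the level was 15256 to 16589 CPM in F2 and 31032 to 38649 CPM in F14, a ratio of 2.24, with no overlap. As a share of all transcripts by TPM, the group took 5.59% to 6.55% in F2 and 11.4% to 12.2% in F14.

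By complex, 31 of 31 genes of complex I (NADH dehydrogenase) were higher with a median of 1.18, and 3 of 4 of complex II (succinate dehydrogenase) with a median of 1.07. All 7 genes of complex III (the cytochrome bc1 complex) rose with a median of 1.72, all 6 tested of complex IV (cytochrome c oxidase) with a median of 1.26, and 12 of 13 of ATP synthase with a median of 1.44. With the length trend removed these medians, from complex I to ATP synthase, were 0.63, 0.67, 0.82, 0.62 and 0.85. That fit called 28 of the 31 complex I genes and all 4 of complex II higher. Uqcr10, a small subunit of complex III, changed the most. Its level was 97.4, 80.3, 82, 71.7 and 65.6 CPM in A21 to A25 and 399.8, 359.8, 448, 448 and 417 CPM in A61 to A65. The log2 difference was 2.38 (SE 0.11, adjusted p = 3.61e-09). Another small subunit of that complex, Uqcrq, went from 229.8 CPM ± 21.6 to 894 CPM ± 51.9 (SD, n = 5 each; log2 difference 1.96, SE 0.08, adjusted p = 1.86e-09). Atp5g2, which encodes the membrane c subunit of ATP synthase and was the most abundant member at 4943 TPM in F2, went from 1988 CPM ± 138 to 4738 CPM ± 426 (log2 difference 1.25, SE 0.08, adjusted p = 3.5e-08).

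The members that were not called are both large catalytic subunits. Sdha, the flavoprotein of complex II, read 234, 230.2, 228, 219 and 233 CPM in F2 and 216, 224, 261, 235 and 278 CPM in F14, and these ranges overlap. Atp5b, the catalytic beta subunit of ATP synthase, read 699, 1075, 826, 1042 and 1165 CPM in F2 and 1015, 936, 1161, 1129.7 and 1973 CPM in F14. In F14 the library A65 alone was high for Atp5b, and the log2 difference of 0.37 (SE 0.21) had an adjusted p of 0.139. Ndufv1 and Ndufs1, core subunits of the NADH-oxidising arm of complex I, had the smallest called differences, 0.45 and 0.46 (0.25 for Ndufv1 with the length trend removed).

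Length moves with this group. Of the 61 tested members, 52 were in the shortest length class, and across the 61 the log2 difference correlated with log relative length at r = -0.71, a description over genes that share the same libraries. With the length trend removed, 57 of 61 were called higher and 0 lower, and the median fell from 1.29 to 0.67. Uqcr10, Uqcrq, Atp5g2 and Atp5b stood at 1.87, 1.17, 0.83 and 0.14 in that fit, Atp5b not called, and Sdha was then called higher at 0.28 (adjusted p = 0.00465). Ndufa13 (-0.01), Ndufb8 (0.10) and Ndufs3 (0.16) of complex I lost their call there.

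**Figure D2:**
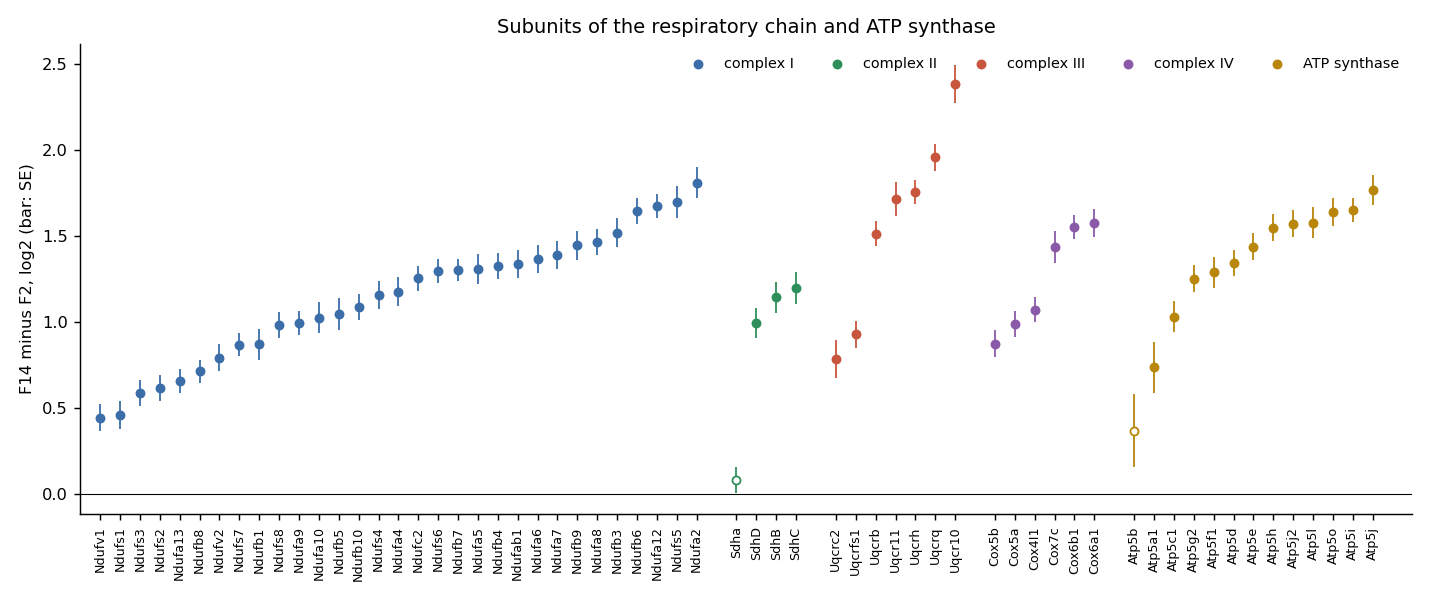
Log2 difference of F14 minus F2 for the 61 tested subunits, ordered within each complex, with bars of 1 SE. Filled points were called at an adjusted p below 0.05, and open points, Sdha and Atp5b, were not. All points lie above 0, from 0.09 for Sdha to 2.38 for Uqcr10.

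Genes of detoxification enzymes were mostly lower, but each family held members that rose. Of 43 cytochrome P450 genes 35 were tested, with 21 lower, 6 higher and 8 not called, at a median log2 difference of -1.51. Removing the length trend gave 23 lower and 6 higher. The summed level fell from 2784 to 4992 CPM in F2 to 1004 to 1380 CPM in F14. The CYP families differed in their medians. Of CYP6 genes 8 of 10 tested were lower (median -3.24), of CYP4 genes 9 of 14 were lower and 2 higher (median -1.50), and of CYP9 genes 4 of 9 were lower and 3 higher (median -0.18; 5 lower, 3 higher and -0.36 with the length trend removed). The sum over CYP6 genes was 1933 CPM ± 685 in F2 and 63 CPM ± 29.7 in F14, while that over CYP9 genes was 1009 CPM ± 176 and 918 CPM ± 109.

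CYP6AQ8, the most abundant P450 gene of F2 heads at 2109 TPM, read 919, 1781, 824, 1117 and 2227 CPM in A21 to A25. In A61 to A65 it read 8.32, 1.6, 0.313, 10.3 and 66.1 CPM. All F14 values lay far below all F2 values, and A65 was the highest of F14 by a wide gap. The log2 difference was -6.30 (SE 1.19, adjusted p = 0.00129), and -8.03 without A65. Its relatives CYP6AQ5 and CYP6AQ4 fell too. CYP6AQ5 went from 27.5 to 113 CPM to 0.532 to 2.32 CPM (log2 difference -5.73, SE 0.51, adjusted p = 3.77e-06), and CYP6AQ4 from 202 CPM ± 50.8 to 5.89 CPM ± 2.14 (-5.09, SE 0.30, adjusted p = 8.91e-08). Neighbouring genes of such a family can share reads, so the split between them is uncertain. CYP6BD2 fell by 3.87 on the log2 scale (SE 0.22), from 122 to 256 CPM to 11.3 to 15.1 CPM. In the other direction, CYP9AH6 rose from 61.5 to 82.7 CPM to 144 to 218 CPM (1.42, SE 0.11, adjusted p = 2.74e-07). CYP9AG4, the most abundant CYP9 gene in F2 at 807 TPM, read 442 to 660 CPM and 402 to 553 CPM and was not called (-0.18, SE 0.12, adjusted p = 0.192), but was called lower with the length trend removed (-0.36, adjusted p = 0.0152).

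Carboxylesterases showed 7 lower and 1 higher of 10 tested genes (13 in all), with a median of -1.67 and a summed level of 1235 CPM ± 278 in F2 and 223 CPM ± 28.1 in F14. CCE-B6 carried 673 CPM of that sum in F2 on average. Its values were 521, 888, 495, 509.8 and 952 CPM in F2 and 13.5, 0, 0, 5.67 and 44.6 CPM in F14. The groups do not overlap, but the F14 libraries ranged from no count to 44.6 CPM in A65 (log2 difference -5.72, SE 1.2, adjusted p = 0.00231). CCE-A3 and CCE-A8 fell by 2.36 (SE 0.25) and 3.25 (SE 0.30) on the log2 scale, and CCE-A6 fell by 0.72 (SE 0.07). CCE-B2 was the member that rose, at 1.12.

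All 16 glutathione transferase genes were tested, 11 lower, 2 higher and 3 not called, with a median of -0.98. With the length trend removed, 13 were lower and 2 higher at a median of -1.51. GstD1, of the delta class and the most abundant at 2043 TPM in F2, read 449, 746, 455, 589 and 758 CPM in F2 and 178, 130.2, 149, 138 and 192 CPM in F14 (log2 difference -1.93, SE 0.18, adjusted p = 1.69e-06). GstD5 fell by 3.53 (SE 0.55), GstT2 by 1.85 (SE 0.16) and the microsomal GST-mic1 by 1.24 (SE 0.11). The 2 that rose are both of the omega class, GstO1 at 0.63 (SE 0.07) and GstO2 at 0.44, or 0.30 and 0.26 with the trend removed.

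**Figure D3:**
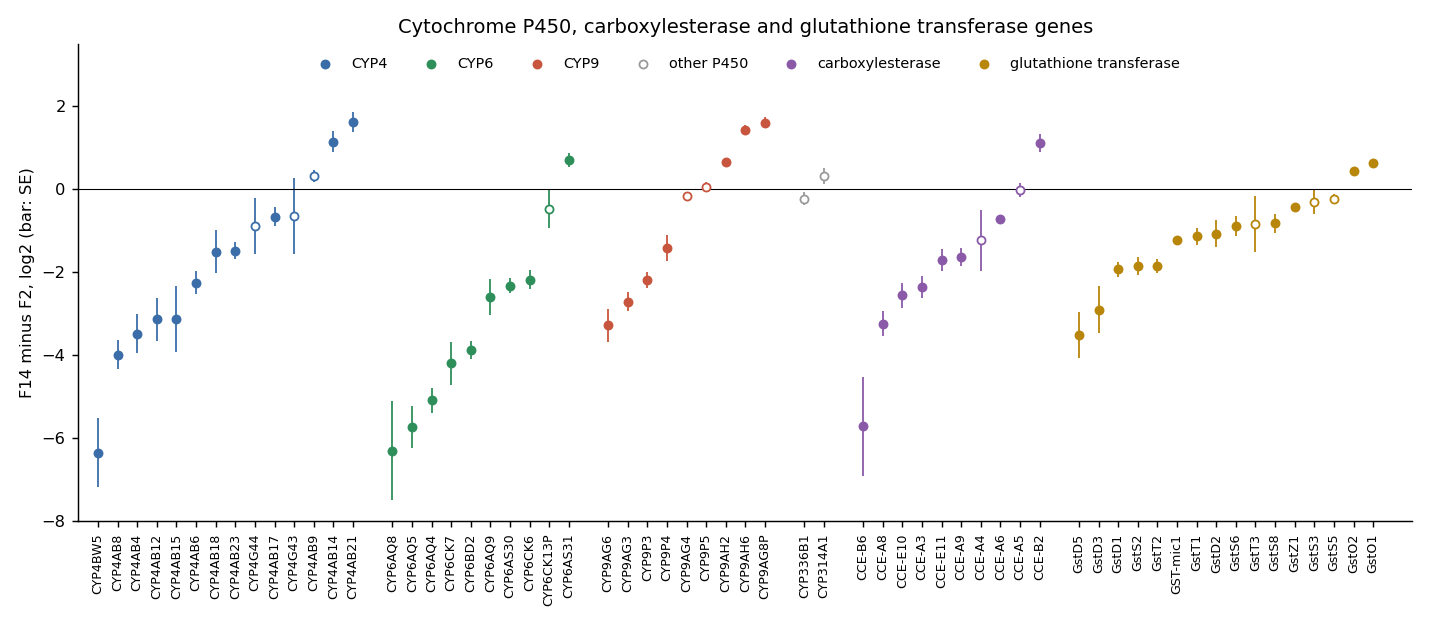
Log2 difference of F14 minus F2 for the tested P450, carboxylesterase and glutathione transferase genes, ordered within each family, with bars of 1 SE. Filled points were called at an adjusted p below 0.05 and open points were not. The lowest points are CYP4BW5 at -6.35 and CYP6AQ8 at -6.30, and the CYP4, CYP6, CYP9, carboxylesterase and glutathione transferase genes each have at least 1 filled point above 0.

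Odorant receptor genes were mostly lower. Of 214 such genes 100 were tested, 83 called lower and 0 higher, with a median of -2.95, against a background of 35.1% of all genes called lower. Removing the length trend gave 88 lower and 0 higher. The filter keeps a gene with enough counts in 1 group, so a receptor near 0 in F14 entered through F2. Over all 214, tested or not, 54 had no count in any F14 library and 8 had none in any F2 library. The sum over the 214 was 317, 658, 284, 447 and 636 CPM in A21 to A25 and 51.6, 35.5, 39.7, 54.3 and 121 CPM in A61 to A65. Every F14 library was below every F2 library, and A65 was again the highest of F14.

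The coreceptor Or1 accounted for about as much as all other receptors together in F2. It read 139.8, 364, 125, 236 and 346 CPM in F2 and 6.85, 4.32, 3.13, 7.5 and 48.4 CPM in F14 (log2 difference -4.10, SE 0.83, adjusted p = 0.00193; -5.44 without A65). Without Or1 the sum was 159 to 294 CPM in F2 and 31.2 to 72.9 CPM in F14, a ratio of 4.87. Or275, the next most abundant, fell from 10.5 CPM ± 2.15 to 0.386 CPM ± 0.231 (-4.75, SE 0.37, adjusted p = 2e-07). Or163 had 4.35 to 10.7 CPM in F2, no count in 4 F14 libraries and 0.526 CPM in A65 (-6.02, SE 0.78, adjusted p = 2.73e-05). Or280 and Or126 were at 1.13 to 2.56 CPM and 0.696 to 1.45 CPM in F2, and each had counts in 1 F14 library alone. Among the 17 tested receptors that were not called, Or140 read 0.951 to 3.47 CPM in F2 and 2.26 to 4.82 CPM in F14, and Or31 read 1.82 to 2.79 CPM and 2.07 to 3.63 CPM. Each of these 2, picked after their values were seen, thus had overlapping groups, and Or140 moved from 0.65 to 0.24 with the length trend removed. Reads of near-identical receptor copies may be divided between them by the counting, which makes single members less certain than the sum.

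Other chemosensory genes went both ways. The odorant binding protein gene OBP77, whose kind carries odorants in the fluid around the receptors, fell from 4.54 to 16.9 CPM to no count in 3 F14 libraries, 0.244 CPM in A64 and 1.87 CPM in A65 (-4.52, SE 0.93, adjusted p = 0.00137). OBP19 rose from 1.01 to 2.29 CPM to 4.19 to 11.2 CPM (2.10, SE 0.32, adjusted p = 8.54e-05). Of 46 gustatory receptor genes, which sense tastants, only 6 had enough counts to test, 3 were higher and 0 lower. Gr3 read 2.06, 2.32, 1.95, 1.57 and 1.83 CPM in F2 and 11.2, 10.5, 11.2, 8.17 and 8.77 CPM in F14 (2.35, SE 0.18, adjusted p = 1.55e-07). The values of Gr2 overlapped (0.71, SE 0.27, adjusted p = 0.034; lost in 6 of 10 fits without 1 library), and those of Gr6 did too (1.27, SE 0.34, adjusted p = 0.00527).

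**Figure D4:**
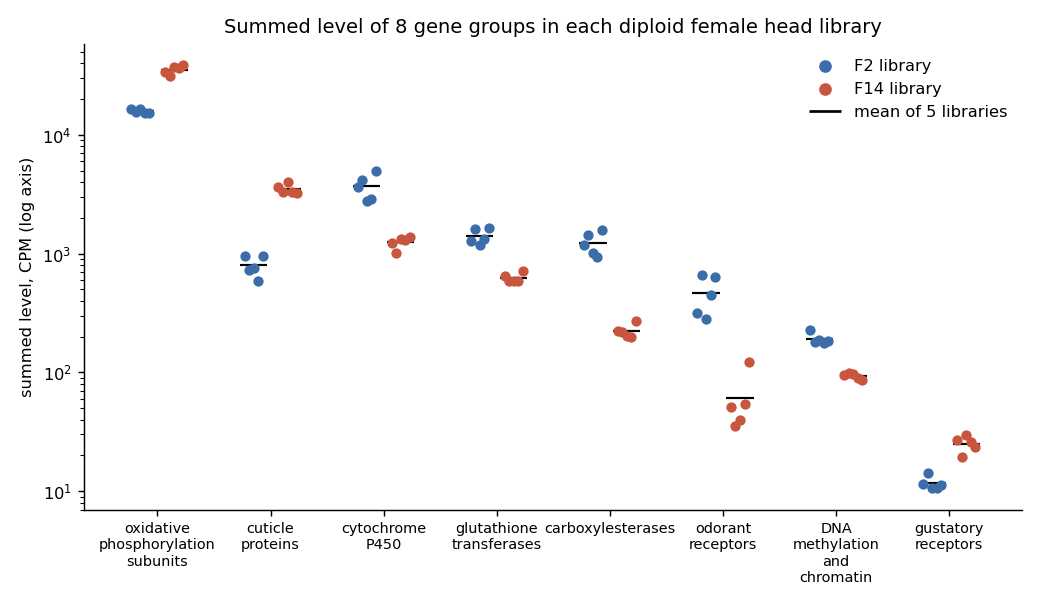
Summed level of 8 gene groups in CPM (vertical, log axis) in each of the 5 F2 and 5 F14 diploid female head libraries, with a bar at the mean of 5. Points of the 2 generations do not overlap in any of the 8 groups, which are a choice from the 20 lists. Summed levels overlapped in lists not drawn, among them serine proteases, immune genes, and royal jelly-like and yellow genes. Of all tested genes, 54.4% had no overlap. In the odorant receptors 1 F14 library, at 121 CPM, stands above the other four.

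Cuticle protein genes included the strongest rises among genes with a symbol. Of 48 such genes 22 were tested, 13 higher, 3 lower and 6 not called, and the summed level went from 588 to 958 CPM to 3263 to 4021 CPM. With the length trend removed, 9 were higher and 4 lower, and the median fell from 0.77 to 0.49. CPR37, of the family with a chitin-binding Rebers-Riddiford motif, read 0.166, 0.211, 0.272, 0.175 and 0.0457 CPM in F2 and 32.6, 31.8, 44.9, 45.4 and 35.5 CPM in F14. This was the highest difference of a gene chosen by the naming rule that carries a symbol (7.71, SE 0.24, adjusted p = 5.47e-10). CPR48 of the same family had the largest share of the summed level in F14.

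CPR48 read 242, 159, 209, 93.5 and 136 CPM in F2 and 2381, 1674, 2337, 1979 and 1541 CPM in F14 (3.56, SE 0.26, adjusted p = 4.61e-07). Apidermins are cuticle proteins first described in the honey bee, and apd-3 read 12.7, 21.9, 11.9, 7.09 and 9.32 CPM in F2 and 175, 903, 441, 259 and 678 CPM in F14 (5.28, SE 0.56, adjusted p = 2.42e-05). The F14 values of apd-3 spread over a 5-fold range and still lay above all F2 values. CPLCP2 rose from 3.21 CPM ± 0.268 to 18.9 CPM ± 6.2 (2.56, SE 0.21, adjusted p = 3.89e-07), and CPR49 from 61.7 to 73 CPM to 118 to 142 CPM (0.92, SE 0.07; 0.43 with the length trend removed). The call of CPR49 was lost in a fit over all 4 female head groups (0.90, adjusted p = 0.123). The 3 that fell are Cpap3-a1, Cpap3-a2 and Cpap3-e, of a family with chitin-binding domains of the peritrophin type.

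Mrjpl8 stood out among the genes related to royal jelly proteins and to yellow, a family with roles in pigmentation in insects. It rose from 0.0906 to 0.482 CPM to 19 to 34.1 CPM (6.44, SE 0.29, adjusted p = 3.51e-09), while 6 of the 13 tested members were lower and Y-x1c was the other that rose (1.56, SE 0.20). Removing the length trend gave 7 lower. Mrjpl7 fell from 15.2 to 44.2 CPM to 8.33 to 12 CPM (-1.58, SE 0.25, adjusted p = 0.000149). Y-e, the most abundant, had overlapping groups and a difference of -0.32 (SE 0.13, adjusted p = 0.044), a call lost in 7 of the 10 fits that leave out 1 library.

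Genes of neuronal receptors and channels went in both directions, 7 higher and 8 lower of 18 tested, with a median of -0.02 (-0.12 with the length trend removed). Among the 11 tested subunits of nicotinic acetylcholine receptors, the main excitatory receptors of insect brains, 5 were higher and 5 lower, or 5 and 6 with the trend removed. nAChRb1 fell from 37.5 to 61.3 CPM to 3.2 to 8.01 CPM (-3.44, SE 0.24, adjusted p = 1.51e-07). nAChRa10 rose from 20.6 CPM ± 1.24 to 69.6 CPM ± 7.34 (1.76, SE 0.09, adjusted p = 6.76e-09), and nAChRa8 from 94.7 to 115 CPM to 224 to 247 CPM (1.11, SE 0.07). Para, the voltage-gated sodium channel, read 466, 387, 518, 448 and 398 CPM in F2 and 139, 142, 137, 150.0 and 165 CPM in F14 (-1.60, SE 0.09, adjusted p = 1.48e-08). Syt1, the calcium sensor of synaptic vesicle release, read 628 to 991 CPM in F2 and 1404 to 1583 CPM in F14 (0.77, SE 0.11, adjusted p = 5.02e-05; 1.25 with the trend removed). These 2 general neuronal markers thus differed in opposite directions, both without overlap.

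Of 6 tested neuropeptide and hormone genes, 4 were higher and 2 lower. ACP, the adipokinetic hormone/corazonin-related peptide, read 8.72, 8.71, 11.1, 12.1 and 9.78 CPM in F2 and 53.4, 47.8, 54.5, 47.4 and 43.5 CPM in F14 (2.29, SE 0.12, adjusted p = 6.8e-09; 1.44 with the length trend removed). Its receptor gene Acpr was called at 0.33, a call that was lost with the trend removed (0.15, adjusted p = 0.0869). Pdf, the pigment-dispersing factor of clock neurons, read 84.2, 75.2, 86, 75 and 63.7 CPM in F2 and 203, 194, 161, 189 and 163 CPM in F14 (1.25, SE 0.10, adjusted p = 2.24e-07; 0.56 with the trend removed). Adipor1, a receptor related to adiponectin receptors, fell from 243 CPM ± 16.9 to 149 CPM ± 12.8 (-0.71, SE 0.08, adjusted p = 3.81e-06). Ecr, the ecdysone receptor, fell by 0.75, and stood at -0.33 with the trend removed.

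The eye marker Lop1 read 4132, 6141, 5545, 7185 and 7542 CPM in F2 and 4639.7, 6695, 3853, 3906 and 4499.7 CPM in F14. These values overlapped and the difference of -0.37 (SE 0.18) was not called (adjusted p = 0.0929). DESeq2 on the same 10 libraries called it narrowly (-0.38, adjusted p = 0.0493). It was also called with A21 left out (adjusted p = 0.0208), with A62 left out (adjusted p = 0.021) and with the length trend removed (-0.54, adjusted p = 0.0304). For muscle, the tropomyosin gene Tm1 read 546, 519, 522, 539 and 517 CPM in F2 and 1566, 1368, 2097, 2278 and 2845 CPM in F14 (1.94, SE 0.17, adjusted p = 1.14e-06). Tm2, the other tropomyosin gene, read 60.3 to 68.4 CPM in F2 and 54.8 to 72.5 CPM in F14 and was not called (0.02, SE 0.08, adjusted p = 0.825; 0.12 with the trend removed, not called).

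The sex determination genes were measured at the level of the gene, so splice forms are not separated. Tra (*transformer*), whose female splice form directs female development and whose knockdown founded the line, read 263, 268, 311, 284 and 259.7 CPM in F2 and 718, 836, 618, 705 and 629 CPM in F14. Every F14 value was more than 1.5 times the highest F2 value (1.34, SE 0.09, adjusted p = 6.1e-08). Fru (*fruitless*), which shapes sex-specific neurons in flies, fell from 245 CPM ± 22.1 to 162 CPM ± 21.3 (-0.59, SE 0.10, adjusted p = 0.000137). Dsx (*doublesex*), the terminal switch gene of the pathway, read 242 to 339.8 CPM in F2 and 257 to 351 CPM in F14 and was not called (0.15, SE 0.12, adjusted p = 0.281). With the length trend removed it was called at 0.36 (adjusted p = 0.015). The ratio of TPM means was below 1 (log2 -0.07), but above the median of -0.30 over all tested genes on that scale.

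Genes of DNA methylation and chromatin were lower in 4 of 5 cases and higher in none, with a summed level of 178 to 226 CPM in F2 and 86 to 98.6 CPM in F14. Ahcy, the enzyme that clears the product of methyl transfer, read 57.4, 32.8, 36, 29.6 and 41.1 CPM in F2 and 2.24, 4.43, 1.82, 2.07 and 2.98 CPM in F14 (-3.86, SE 0.26, adjusted p = 1.13e-07). The histone deacetylase gene Rpd3 went from 27.6 CPM ± 2.67 to 6.4 CPM ± 1.15 (-2.11, SE 0.14, adjusted p = 4.67e-08). Dnmt1a, a maintenance DNA methyltransferase, went from 31.3 CPM ± 2.1 to 14.2 CPM ± 1.85 (-1.14, SE 0.11, adjusted p = 1.16e-06), and Brd8, a bromodomain protein, fell by 0.66 (SE 0.09). Mbd, which binds methylated DNA, read 32.9 to 35.4 CPM in F2 and 32.4 to 34.9 CPM in F14 and was not called, though it was at -0.22 (adjusted p = 0.0119) with the length trend removed.

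Among 7 tested cell cycle genes, 3 were higher and 3 lower, or 2 and 3 with the length trend removed. Cdk5, a kinase of postmitotic neurons, rose from 40 to 50.9 CPM to 97.4 to 135 CPM (1.28, SE 0.10, adjusted p = 1.82e-07). Cdk2 fell from 4.92 to 5.07 CPM to 1.42 to 2.63 CPM (-1.26, SE 0.22) and cycD from 0.861 to 3.02 CPM to 0 to 0.354 CPM (-3.19, SE 0.72, adjusted p = 0.00165), with A24 the highest F2 library for cycD.

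Ribosomal protein genes with a symbol number only 4. Rpl6, Rpl7a and Rpl41 fell by 0.50, 0.51 and 0.61, and Rpl39 was called higher at 0.35 (SE 0.10, adjusted p = 0.00767). The call of Rpl39 depended on the scaling. Its TPM mean went from 2663 to 1789, on a scale where the median log2 ratio of all tested genes was -0.30. The difference with the length trend removed was -0.66 (adjusted p = 3.03e-05). In that fit all 4 were called lower, Rpl6 at -1.05, Rpl7a at -1.07 and Rpl41 at -1.61. The lipid gene Acox3, a peroxisomal acyl-CoA oxidase, fell by 0.62 (SE 0.10).

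Serine proteases and their homologues had 4 higher, 9 lower and 12 not called of 25 tested genes (51 in all), or 4 higher and 10 lower with the length trend removed. SP43 read 7.83, 8.47, 3.17, 3.24 and 6.26 CPM in F2 and was without a count in 4 F14 libraries, with 0.244 CPM in A64 (-6.75, SE 0.74, adjusted p = 4.55e-06). SP128 fell from 10.2 to 31 CPM to 0 to 0.564 CPM (-6.00, SE 0.50), and SPH42 from 62.8 to 102 CPM to 8.66 to 15.6 CPM (-2.77, SE 0.17). SP68 rose from 9.97 CPM ± 1.77 to 52.6 CPM ± 8.18 (2.40, SE 0.14, adjusted p = 2.4e-08), and SP120, the most abundant in F14 at 633 TPM, from 96.9 to 121 CPM to 183 to 288 CPM (1.07, SE 0.13; 0.54 with the length trend removed). Of 5 immune genes 3 were higher and 2 lower at a median of 1.71, and with the length trend removed 2 were higher and 2 lower at a median of 0.85. Def1-2, a defensin gene, read 24.9, 30.1, 19.6, 9.93 and 43.1 CPM in F2 and 373, 55.1, 177, 263 and 154 CPM in F14 (3.0, SE 0.55, adjusted p = 0.000925). The prophenoloxidase gene ppo3 rose (1.73, SE 0.29), and Gnbp1-2, of the beta-glucan recognition family, fell (-1.36, SE 0.29).

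Genes with only a LOC number had the widest differences, and the files give them no function. LOC116738455 had no count in F2 and 9.15, 12.5, 20.5, 10.2 and 14.9 CPM in F14, at least 573-fold higher against a floor of 3 counts over the F2 group. LOC100678671, with no count in F2 either, read 10.5, 1.66, 1.82, 9.09 and 8.54 CPM, at least 269-fold higher. LOC100114648 read 0.548 to 3.77 CPM in F2 and 387 to 1882 CPM in F14 (9.24, SE 0.68, adjusted p = 1.91e-06). LOC100117414 read 277, 301, 450.2, 314 and 565 CPM in F2, and in F14 it had counts in A63 alone, at 0.501 CPM (-11.87, SE 0.54, adjusted p = 2.14e-08).

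LOC100679906 was at 3.41 to 7.96 CPM in F2 and without a count in F14, at least 153-fold lower against a floor of 3 counts over the F14 group. LOC100680373 was at 14.4 to 26.6 CPM in F2 and without a count in 4 F14 libraries, with 0.175 CPM in A65. A pair of abundant genes, picked after their values were seen, went opposite ways. LOC100122102 read 12962, 14946, 13913, 12165 and 27831 CPM in F2 and 394, 1071, 159, 373 and 401 CPM in F14 (-5.09, SE 0.55, adjusted p = 2.79e-05). LOC100117792 read 344 to 505 CPM in F2 and 6373 to 12648 CPM in F14 (4.43, SE 0.22, adjusted p = 1.38e-08). LOC100121611 and LOC103317402, also picked after their values were seen, owe their F2 means to A24, at 221 and 41.6 CPM there and at most 1.69 and 2.26 CPM in the other F2 libraries. Their log2 differences of -8.78 and -7.82 became -3.16 and -5.18 without A24.

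Heads of triploid (3N) females of the same generations addressed whether the difference depended on ploidy. In triploids the same test called 182 of 10177 genes (1.79%). There the F2 library A34 held the 44 abdomen genes at 10210 CPM in sum, 105% of the mean abdomen, so values without A34 stand beside it. Values without A34 and A35 are given too, because A35 also stood apart in earlier results of these data. The abdomen genes are not the reason for A35, which held them at 6.18 CPM in sum with 30 of the 44 at 0. Why A35 stood apart was not tested. Without A34, 1106 of 10334 genes (10.7%; 3.61% higher and 7.09% lower) were called, and without A34 and A35, 4271 of 10629 (40.2%; 18.7% higher and 21.5% lower). The triploid and diploid comparisons share no library. Across genes the log2 differences of both correlated at r = 0.70 with all libraries, 0.77 without A34 and 0.81 without A34 and A35, given as a description.

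The difference between the diploid and the triploid change was itself called for 0 of 10875 genes (0%) by edgeR, with 1878 at an unadjusted p below 0.05, while DESeq2 called 435. Without A34 it was called for 711 of 10987 genes (6.47%; 3.77% more positive in diploids and 2.7% less), and without A34 and A35 for 1197 of 11154 (10.7%; 5.43% and 5.3%). In the fit without A34, 44 of 61 oxidative phosphorylation subunits had a more positive difference in diploids and 0 a less positive one, at a median of 0.73 between the ploidies. Without A34 and A35 it was 46 and 0, at a median of 0.60. In triploids themselves 1 of 61 subunits was higher with all libraries, 7 without A34 and 36 without A34 and A35, with medians of 0.60, 0.48 and 0.65, and 0 were lower in each of the 3 fits. Odorant receptors in triploids had 0 of 24 tested called with all libraries (median -1.24), 6 of 36 lower without A34 (median -2.50) and 104 of 127 lower without A34 and A35 (median -5.34), with 0 higher in each. These 3 medians cover different genes, because the filter passed more receptors as F2 libraries were left out. A receptor near 0 in F14 entered through F2, so its lower value is in part set by the filter. The P450 genes of triploids were 5 lower and 0 higher of 35 with all libraries, 12 and 3 without A34, and 24 and 3 without A34 and A35. CPLCP2 rose more in diploids (between-ploidy log2 difference 2.27, SE 0.51, adjusted p = 0.0186 without A34). The means of CPR34 moved in opposite directions (2.25, SE 0.64, adjusted p = 0.0454, for the difference between the changes). Its F2 and F14 means were 36.9 and 104.5 CPM in diploids and 62.6 and 37.5 CPM in triploids. The libraries overlapped in both, at 24.7 to 53.2 and 46.1 to 137 CPM in diploids. In triploids they ran from 7.58 to 84.6 CPM in F2 and from 26.5 to 60.3 CPM in F14. CYP6AQ5 fell more in diploids (-2.54, SE 0.66, adjusted p = 0.0321), and so did Daam, a formin of the actin cytoskeleton (-1.15, SE 0.31, adjusted p = 0.0359). For Daam the diploid means were 72.3 and 20.7 CPM and the triploid means 58.1 and 37.3 CPM in F2 and F14.

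Abdomens of diploid females, 3 libraries of F2 and 5 of F14, addressed whether the change was shared with another body part. There 3778 of 10586 genes (35.7%; 18.6% higher and 17.1% lower) were called, and the log2 differences of heads and abdomens correlated across 9634 genes at r = -0.001. The difference between the tissues was called for 6299 of 11749 genes (53.6%), more positive in heads for 22.8% and less positive for 30.8%. Among the oxidative phosphorylation subunits, 56 of 61 had a more positive difference in heads and 1 a less positive one, while abdomens alone showed 3 higher and 7 lower. P450 genes were 11 higher and 0 lower of 40 in abdomens, and 27 of 41 had a lower difference in heads against 3 higher. Mrjpl8 read 0.305 CPM ± 0.165 and 27.2 CPM ± 5.52 in F2 and F14 heads and 0.364 CPM ± 0.189 and 0.37 CPM ± 0.201 in abdomens (between-tissue log2 difference 6.49, SE 0.63, adjusted p = 6.57e-07). CPR37 rose further in heads than in abdomens, where it was at 0.0684 and 1.02 CPM (4.0, SE 0.98, adjusted p = 0.00259), a call that was lost without the F2 abdomen library A27 (3.15, adjusted p = 0.0886). CCE-B6 and GstD5 were near 0 in abdomens of both generations, at 0.0572 and 1.09 CPM and at 0 and 0.25 CPM (-9.79, SE 2.48, adjusted p = 0.00339, and -9.13, SE 2.25, adjusted p = 0.0034). For both genes the size exceeds the difference in heads, because a change between abdomen levels near 0 enters it. These 2 sizes therefore depend on the floor.

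Heads of diploid males, 5 libraries each of generations F3 and F15, addressed whether the change was shared between the sexes. There 3985 of 10488 genes (38%; 18.4% higher and 19.6% lower) were called, and 4263 of 10640 (40.1%; 19.4% and 20.6%) without A15A, an F3 library that stood apart in earlier results of these data. Across 10112 genes the log2 differences correlated with those of females at r = -0.50, as a description. Of 2910 genes called in both, which are 42.6% of the female and 74.6% of the male calls among genes tested in both, 2536 went opposite ways and 374 the same way. The difference between the sexes was called for 7070 of 11020 genes (64.2%), more positive in females for 30.4% and less positive for 33.8%, and without A15A for 7212 of 11186 (64.5%; 30.3% and 34.1%). In male heads 28 of 62 oxidative phosphorylation subunits were lower and 1 higher at a median of -0.29, and 57 of 62 had a more positive difference in females against 1 less positive. Male P450 genes were 15 higher and 4 lower of 39, and the male odorant receptors 6 higher and 2 lower of 28.

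The single genes that follow were picked as the 2 highest and 2 lowest of this between-sex difference among called genes with a symbol. They are examples of it and add no support. CPR37 read 0.189 and 40 CPM in F2 and F14 female heads and 4.88 and 0.374 CPM in F3 and F15 male heads (between-sex log2 difference 11.39, SE 0.85, adjusted p = 1.97e-09). apd-3 read 13.7 and 514 CPM in females and 8.9 and 0.919 CPM in males (8.51, SE 0.75, adjusted p = 2.35e-08). WRNexo, related to the exonuclease of the Werner syndrome protein, read 4.54, 5.7, 2.22, 4.37 and 7.31 CPM in the F2 female libraries and had no count in any F14 female library, at least 137-fold lower. In males it read 1.67 CPM ± 2.14 and 7.76 CPM ± 2.5 (-11.90, SE 1.92, adjusted p = 6.91e-05). CYP6AQ8 fell in females and read 54.5 CPM ± 62 and 313 CPM ± 361 in males, where it varied widely between libraries (-8.83, SE 2.01, adjusted p = 0.00103).

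**Figure D5:**
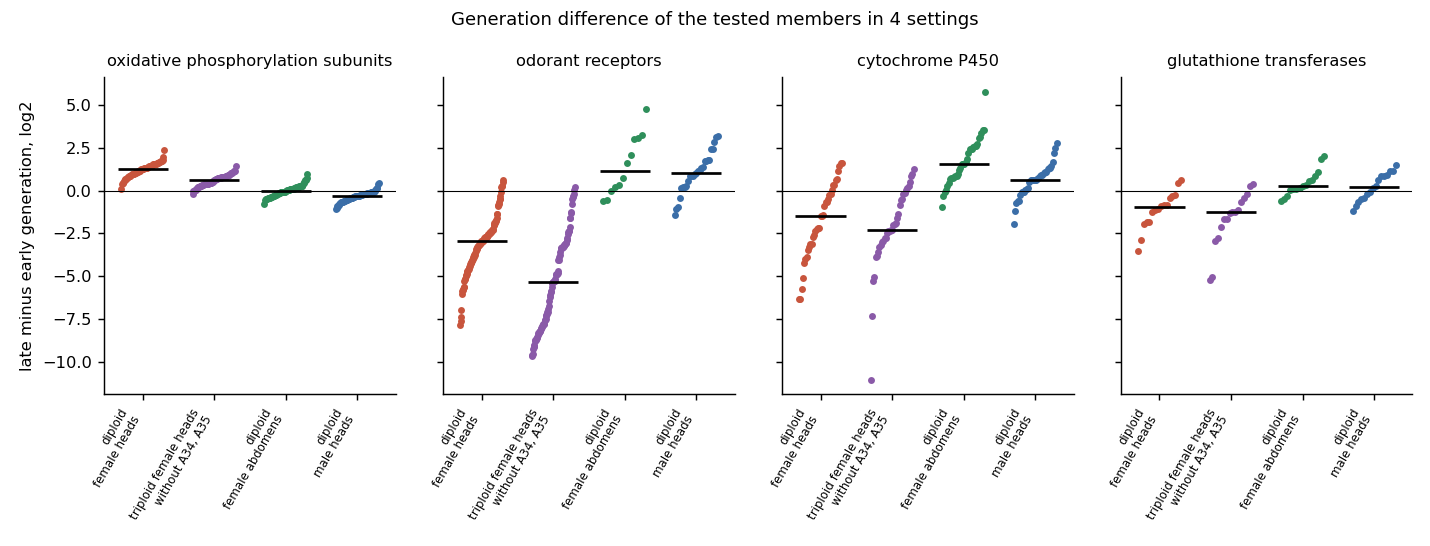
Log2 difference of late minus early generation in 4 settings, 1 point a gene, for members tested in diploid female heads and in that setting, with a bar at the median. Oxidative phosphorylation subunits have medians of 1.29, 0.65, -0.01 and -0.29 in diploid female heads, triploid female heads without A34 and A35, diploid female abdomens and diploid male heads. Odorant receptors, P450 and glutathione transferase genes have medians below 0 in both female head settings and above 0 in abdomens and male heads. The odorant receptor medians cover 100, 94, 12 and 27 genes in that order, so those of abdomens and male heads rest on a small part of the family. Of all receptors tested there, 4 of 14 were called in abdomens and 8 of 28 in male heads.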

How the data were processed

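Expected counts and TPM values per gene were deposited by the authors, made with STAR 2.7.11a and RSEM 1.3.1 per the submitters' processing notes. The build is not given in the sources used here. Deposited expected counts were rounded to whole numbers (14621 genes). Deposited TPM values (14613 genes) served for levels between genes, relative length and 1 alternative. RSEM divides reads of similar genes by estimate, so members of gene families are uncertain.

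Counts were scaled by TMM and filtered with filterByExpr, and differences were tested with edgeR 4.0.16 (quasi-likelihood, robust; R 4.3.3) with Benjamini-Hochberg adjustment over all tested genes, called below 0.05. The standard error is the log2 difference over the square root of F. The main comparison used its 10 libraries, and the 3 comparisons of differences used 4 groups each. CPM values are TMM-scaled over the 10 libraries, or over all 8 groups where the triploids, abdomens or males are named. Scripts were tested on simulated data.

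The groups, the 20 gene lists, by symbol pattern, and the rules for named genes were chosen with earlier results of these data known. Named were 4 sex and eye genes, the 6 highest and 6 lowest genes with a symbol, the 3 highest and 3 lowest LOC genes (called, at least 5 CPM in a group, without overlap), up to 3 members of each list with its most abundant one, and 2 genes per direction and difference of differences. Other members are quoted beside them as examples. The symbol table of assembly Nvit_psr_1.1 matched all 14621 genes and served for names and chromosomes. Sequences were not used here. Alternatives were RLE factors, DESeq2 1.42.0, other filters, thinning, leaving out libraries, a 4-group fit, TPM and a fit with the length trend removed.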

Additional observations from a re-analysis of the deposited data

Results flagged for a closer look

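In 28 of 220 values examined, 1 library stood apart from the other four of its group: its gap to the nearest of them, as a share of the whole range of the group, was above 0.71, the 95% critical value of Dixon's test for 5 values. For normally distributed values chance gives about 1 such value in 20 groups, and members of a list are not independent. That rate does not hold for a group with counts in 1 library alone, where the share is always 1. A65 of F14 was the high library in 10 of the 28 and A24 of F2 in 6.

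A65 was high for the odorant coreceptor Or1 (gap share 0.903), the summed odorant receptors (0.781), the binding protein gene OBP77 (0.870), the P450 gene CYP6AQ8 (0.848), the summed CYP6 genes (0.865) and the summed CYP4 genes (0.738). The share was 1, with no count in the other four, for Or163, Or280, LOC100680373 and *nanos* in A65. The same held for Or126 and SP43 in A64, for LOC100117414 in A63 and for cycB in A61. Each of these had a lower mean in F14 than in F2, and where A65 was high it was the F14 library nearest to F2.

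A24 was high for the abdomen markers (0.916), *oskar* (0.814), *nanos* (0.948), cycB (0.936), LOC100121611 (0.995) and LOC103317402 (0.970). Whether abdominal RNA in A24 accounts for the last 2 was not tested. A62 was high for Lop1 (0.723), CPR49 (0.771), Daam (0.848) and LOC100122102 (0.735), the last of which was also high in A25 within F2 (0.822). Syt1 stood apart in A63 (0.763), the summed gustatory receptors in A22 (0.734) and the summed chromatin genes in A21 (0.845).

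A further set differed between settings in a test of the difference itself, 6299 genes between heads and abdomens and 7070 between female and male heads. Against triploid heads without A34, the log2 difference of the changes was 2.27 for CPLCP2, 2.25 for CPR34, -2.54 for CYP6AQ5 and -1.15 for Daam. Against abdomens it was 6.49 for Mrjpl8, 4.0 for CPR37, -9.79 for CCE-B6 and -9.13 for GstD5. Against male heads it was 11.39 for CPR37, 8.51 for apd-3, -11.90 for WRNexo and -8.83 for CYP6AQ8.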

How the results depend on the processing

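No paired analysis was possible because the library names carry no replicate number shared between groups. The 7024 calls became 7022 with RLE factors, 7167 with DESeq2, 7295 with no filter, 6309 with at least 5 CPM, 6965 after thinning, 6734 with the length trend removed and 6981 without A24, A62 and A65. One library left out gave 6667 to 7194, with 3207 to 3616 higher and 3403 to 3578 lower. Fitting all 4 female head groups together gave 3707 (1720 higher, 1987 lower), and 6285 without A34. The cause was not tested. Of 82 named genes, 61 kept direction and call in each fit that gave them a value and 21 did not. TPM ratios have no test, and 4 of the 82 have no such ratio. In that 4-group fit 18 lost their call, among them Para (-1.62), Pdf (1.22), Syt1 (0.75), nAChRa8 (1.09) and oskar (-2.60). For Para, Pdf, Syt1 and nAChRa8 the log2 differences are close to those reported above. The gene oskar was called lower at -2.86 (adjusted p = 1.46e-05) in the edgeR fit with the length trend removed.

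Tm2, never called, went to -0.00331, -0.00898 and -0.0102 in the 4-group fits (all libraries, without A34, without A34 and A35). It went to between -0.00279 and 0.105 with 1 library left out and to -0.269 by TPM, and Dsx went to -0.0687 by TPM. Both TPM values lie above the TPM median of -0.30 over all tested genes. The cause was not tested. Differences from triploids were called for 0 genes, for 435 with DESeq2, 711 without A34, 1197 without A34 and A35, and 0 to 711 with 1 library left out. CYP6AQ5 passed there also with DESeq2 on all libraries, and CPLCP2, CPR34 and Daam passed only in fits without A34. Depth, lower in F14, limits what can be said of genes near 0 there.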
